A study of Mus musculus with 4 samples.

Results

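The Rab small GTPases were described in the RNA-seq libraries of hematopoietic stem cells (HSC) and common lymphoid progenitors (CLP) of WT and GRK6-/- mice. The members were the rows whose gene symbol is Rab followed by digits and at most 1 further letter from a to d, so that effectors and Rab-like proteins with longer names stayed out. This rule took 49 of the 12417 genes analysed. The mice were C57BL/6, aged 8 to 12 weeks by the study's methods. GRK6-/- mice lack exons 3 to 9 of Grk6, the gene of a G protein-coupled receptor kinase. HSC were sorted from bone marrow by the gate Lin-c-kit+sca-1+. The CLP gate asked for Il-7Ra+ in addition, so the HSC gate as labelled did not remove Il-7Ra+ cells. Each of the 4 groups was 1 library, given below as WT and GRK6-/- HSC and then WT and GRK6-/- CLP, and was pooled from 13 to 15 cells of 3 to 4 mice. No group had a replicate, so a difference between a pair of libraries compares those libraries and carries no p-value. Levels are FPKM, fragments scaled by transcript length and by the mapped fragments of the library. A ratio is the log2 of (FPKM + 1) in one library over (FPKM + 1) in another, and a gene past a 2-fold difference has a log2 ratio of at least 1 or at most -1. For a gene without a row in one of the libraries no ratio is printed, although it was counted with an FPKM of 0.

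Rab proteins are the largest family of Ras-like GTPases. Each one marks particular membranes of the cell. In the GTP-bound form a Rab recruits effectors that move, tether and fuse vesicles, and in the GDP-bound form it is held in the cytosol by a GDP dissociation inhibitor. Exchange factors load GTP, and GTPase-activating proteins of the TBC family switch the Rab off. In blood cells the family is known for receptor recycling and degradation, for autophagy and for the release of granules. Almost all are built from a small G domain. Their annotated coding lengths were alike, which does not by itself show the domain. The coding length of the 49 members had a median of 648 bp, against 1377 bp over 11961 genes with a row. Between 550 and 850 bp lay 47 of the 49 members and 1705 of the 11961 genes. Rab44, with 2175 bp, was the longest.

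Some facts of the series bear on every value below. Grk6 itself read 42.7 and 89.4 FPKM in the HSC of WT and GRK6-/- mice and 26.9 and 57.6 in their CLP. It was higher in both libraries labelled GRK6-/-, and since the value covers the whole gene and not the deleted exons, it does not check the labels. The groups are therefore named here only as labelled. The low FPKM values corresponded to a scaling of about 2890000 and 3800000 fragments in the HSC of WT and GRK6-/- mice and 4360000 and 2790000 in their CLP, at which 1 fragment on a transcript of 2 kb is worth 0.115 to 0.179 FPKM. These are estimates and may be too low, since the study states a larger number of reads for each lineage. After 20 and 10 cycles of PCR per cell fragments are not independent molecules. The GRK6-/- CLP library stood apart by its erythroid markers, summed over the 5 of 7 genes with a row to 17466 FPKM there and to 13.6, 134 and 17.8 FPKM in the other 3 in the order of the groups above. Il7r, which defines the CLP gate, had no row in WT HSC, read 1.08 FPKM in GRK6-/- HSC and reached 120 and 75.1 FPKM in the WT and GRK6-/- CLP libraries. Kit, which defines both gates, read 53.3, 34.4, 26.2 and 81.8 FPKM. Neutrophil markers, all 7 with a row, were high in every library, with sums of 16019, 11107, 8473 and 7373 FPKM in that order, and Ltf or Ngp was at 0 in each.

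Of the 49 Rab genes, 31 (63.3%) had a row in all 4 libraries, against 66.4% of all genes. A row in only 1 library was found for 8 (16.3%), against 12.6% of all genes. By library, 39 members (79.6%) had a row in WT HSC and 44 (89.8%) in GRK6-/- HSC, while 36 (73.5%) had one in WT CLP and 39 (79.6%) in GRK6-/- CLP. Of all genes 83.5%, 87.5%, 79.5% and 81.6% had one in the same order. The median member read 21.5 and 16.8 FPKM in the HSC of WT and GRK6-/- mice and 12.5 and 16.1 in their CLP. Over all genes with a row the medians were 10.7, 9.25, 11.9 and 11.97 FPKM in the same order, so that the typical detected Rab gene lay above the typical gene in all 4 libraries, by least in WT CLP. At least 10 FPKM in all 4 libraries was reached by 16 members (32.7%), against 26.8% of all genes. The highest member differed in each library, with Rab38 first in WT HSC (125 FPKM), Rab44 first in GRK6-/- HSC (228 FPKM), Rab7 first in WT CLP (105 FPKM) and Rab24 first in GRK6-/- CLP (65.3 FPKM). A further 7 annotated genes that match the rule had no row in any library, namely Rab3a, Rab3c, Rab9b, Rab15, Rab19, Rab39 and Rab39b. Rab3a and Rab3c are known from the synapse.

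**Figure D1:**
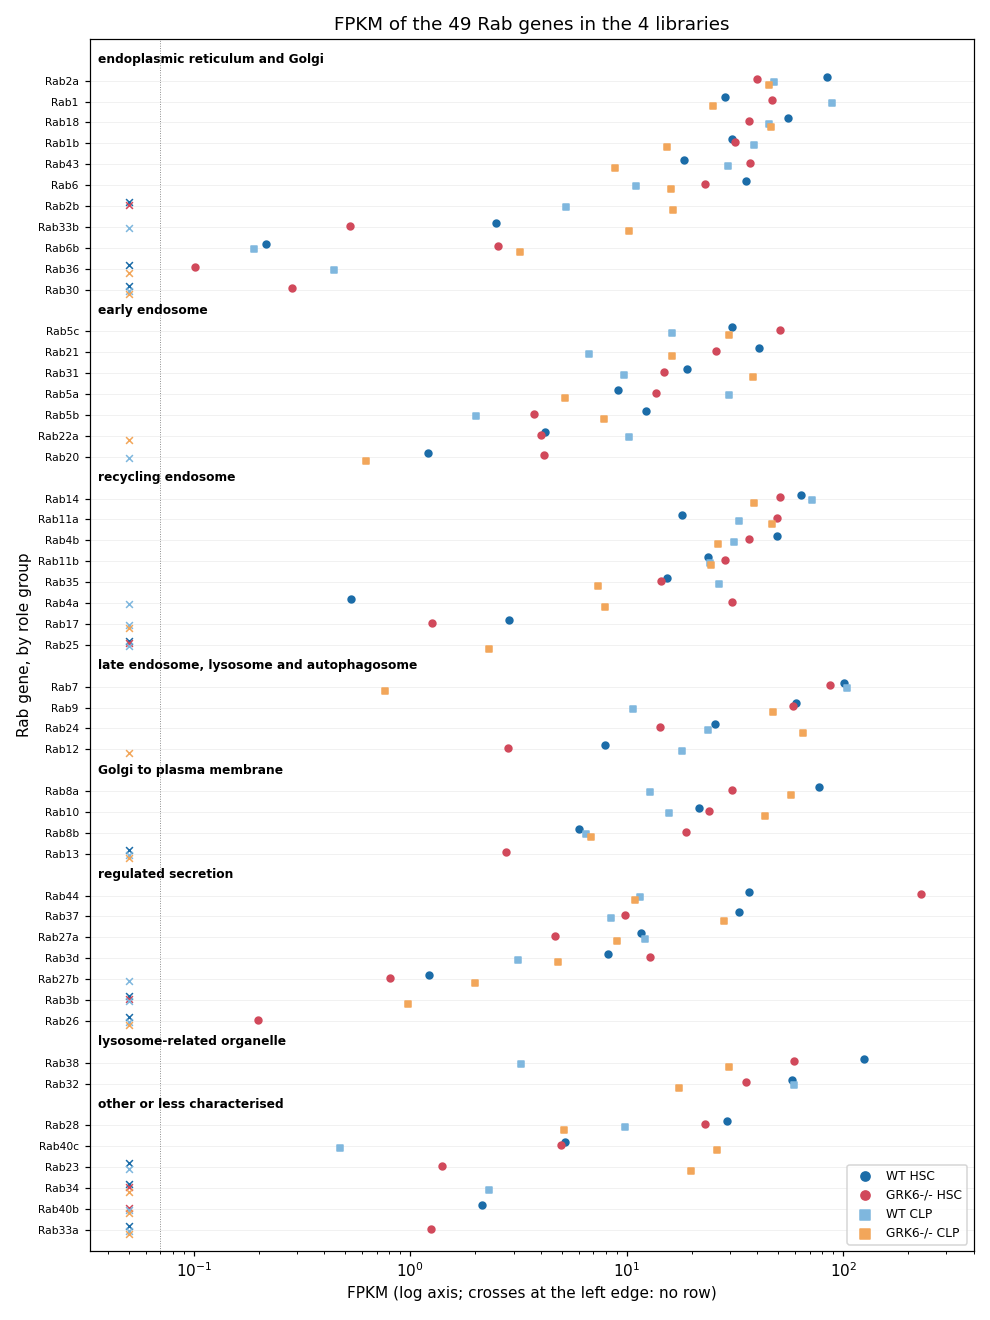
FPKM of the 49 Rab genes on a log axis, grouped by the compartment each is known for; each symbol is 1 library (circles HSC, squares CLP) and crosses at the left edge mark genes without a row. The symbols of Rab11b and Rab18 lie close together, whereas Rab7, Rab38, Rab44 and Rab4a each have a library far from the others.

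Rabs of the endoplasmic reticulum and Golgi, 11 members, formed the group with the highest summed level in WT HSC, WT CLP and GRK6-/- CLP. Their FPKM summed to 256 and 219 in the HSC of WT and GRK6-/- mice and 268 and 187 in their CLP. Rab1, the symbol used in these files for the Rab that drives transport from the endoplasmic reticulum to the Golgi, read 28.3 and 46.9 FPKM in the HSC of WT and GRK6-/- mice and 89.1 and 24.9 in their CLP. Its close relative Rab1b read 30.8, 31.6, 38.8 and 15.4 FPKM in the same order. The row of Rab1 overlaps that of Cep68. Rab1 and Rab1b were both lowest in GRK6-/- CLP, with log2 ratios to WT CLP of -1.80 and -1.28. Rab43, which acts in traffic back to the Golgi, was also lowest in that library, with 18.3, 37.1, 29.2 and 8.82 FPKM and a log2 ratio in CLP of -1.62. Rab2a, a Rab of the Golgi and its retrograde carriers, read 84.5 FPKM in WT HSC, above the 40.2, 47.9 and 45.6 FPKM of the other libraries. Its log2 ratio in HSC was -1.05. Rab2b had no row in either HSC library and 5.27 FPKM in WT CLP and 16.4 in GRK6-/- CLP. Its row overlaps that of Tox4, and with no strand stated for the counting their reads cannot be told apart. Rab18, which sits on the endoplasmic reticulum and lipid droplets, was among the steadiest, with 55.4, 36.9, 45.6 and 46.4 FPKM. Rab6, a Golgi Rab whose row overlaps that of Mrpl48, read 35.7, 22.9, 11.1 and 16.0 FPKM and was higher in both HSC libraries than in both CLP libraries. Rab33b, which links the Golgi to autophagosome formation, read 2.50 and 0.525 FPKM in the HSC libraries and 10.2 in GRK6-/- CLP, with no row in WT CLP. Rab6b stayed at or below 3.21 FPKM, Rab36 at or below 0.442 and Rab30 at 0.283 in its only library.

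The 7 Rabs of the early endosome summed to 117 FPKM in each HSC library and to 74.6 and 97.8 FPKM in WT CLP and GRK6-/- CLP. Rab5 organises the fusion of endocytic vesicles, and its 3 genes each had another order of libraries. Rab5a read 9.13 and 13.6 FPKM in the HSC of WT and GRK6-/- mice and 29.8 and 5.17 in their CLP. Rab5b read 12.2, 3.73, 2.02 and 7.84 FPKM, and Rab5c read 30.6, 51.0, 16.1 and 29.5 FPKM. In CLP the log2 ratios of GRK6-/- to WT were -2.32 for Rab5a, 1.55 for Rab5b and 0.83 for Rab5c. Rab5a therefore led the family only in WT CLP, with 62.2% of its summed FPKM, and Rab5c led it in the other 3 libraries with 58.9% to 74.6%. Rab21, which carries integrins through early endosomes, read 40.6 and 25.9 FPKM in WT and GRK6-/- HSC and 6.70 and 16.1 FPKM in WT and GRK6-/- CLP. Both HSC libraries lay above both CLP libraries. Rab31, which acts between the trans-Golgi network and endosomes, read 18.9, 14.9, 9.69 and 38.5 FPKM and was highest in GRK6-/- CLP, with a log2 ratio to WT CLP of 1.89. Rab22a, a relative of Rab31 on early and recycling endosomes, read 4.18 and 4.00 FPKM in the HSC libraries and 10.2 in WT CLP, about 320 fragments, and had no row in GRK6-/- CLP. Rab20, known from maturing phagosomes, read 1.21, 4.14 and 0.626 FPKM in WT HSC, GRK6-/- HSC and GRK6-/- CLP and had no row in WT CLP.

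Among the 8 Rabs of the recycling endosome, which return internalised receptors to the surface, the main members were expressed throughout. Rab14 read 64.0 and 51.0 FPKM in the HSC of WT and GRK6-/- mice and 71.6 and 38.6 in their CLP. Rab4b read 49.4, 36.6, 31.2 and 26.4 FPKM, and Rab11b stayed between 23.8 and 28.6 FPKM. None of these 3 passed a 2-fold difference between genotypes in either population. Rab11a, which serves slow recycling, read 18.0 FPKM in WT HSC and 49.5 in GRK6-/- HSC, a log2 ratio of 1.41, and 33.0 and 46.7 FPKM in WT and GRK6-/- CLP. Rab4a, which serves fast recycling, read 0.533 FPKM in WT HSC and 30.8 in GRK6-/- HSC, about 2 and 166 fragments. It had no row in WT CLP and read 7.92 FPKM in GRK6-/- CLP, so both libraries labelled GRK6-/- lay above both WT libraries. The log2 ratio of Rab4a in HSC was 4.37. The sum of Rab4a and Rab4b was 49.9 and 67.3 FPKM in the HSC of WT and GRK6-/- mice and 31.2 and 34.4 in their CLP, which kept the genotypes within a 2-fold difference in both populations. Rab35, which acts in fast recycling and cell division, read 15.4, 14.3, 26.6 and 7.38 FPKM, with a log2 ratio in CLP of -1.72. Rab17 and Rab25, known from epithelia, stayed at or below 2.86 FPKM.

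On the scale of FPKM + 1, Rab7 had the largest log2 ratio of the family between genotypes. With 0.1 FPKM added instead, its ratio in CLP was -6.92, and those of Rab12 and Rab23, which each have no row in 1 of the CLP libraries, were larger. Rab7, the symbol used here for the Rab that directs late endosomes and autophagosomes to lysosomes, lies at chr6:87949099-87995221 on the minus strand of mm9. It read 101 and 87.3 FPKM in the HSC of WT and GRK6-/- mice and 105 and 0.764 in their CLP, about 630, 717 and 985 fragments in the first 3 libraries. The first 3 libraries lay close together, and the GRK6-/- CLP library lay far below them, with a log2 ratio to WT CLP of -5.90 and to GRK6-/- HSC of -5.65. The row of that library also had another extent. It spanned 13256 bp, against 46078 to 46123 bp in the other 3, and held 624 of the 2159 bp of the annotated transcript (28.9%), from exon 2 to the beginning of exon 6 of 6. Its FPKM would correspond to about 5 fragments over the whole transcript and to about 1 over the bases inside the row. No annotated transcript spans that row exactly, and no other row lay within the gene in that library. Such a short row was rare, since of 8223 genes with rows in all 4 libraries 2 had a locus in GRK6-/- CLP under 50% of the span in each other library. Of the 1033 genes with at least 50 FPKM in the other 3 libraries, 6 (0.581%), Rab7 among them, read under 1 FPKM in GRK6-/- CLP. Whether the low value is a low level of Rab7 mRNA or a transcript model that left reads out was not tested.

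**Figure D2:**
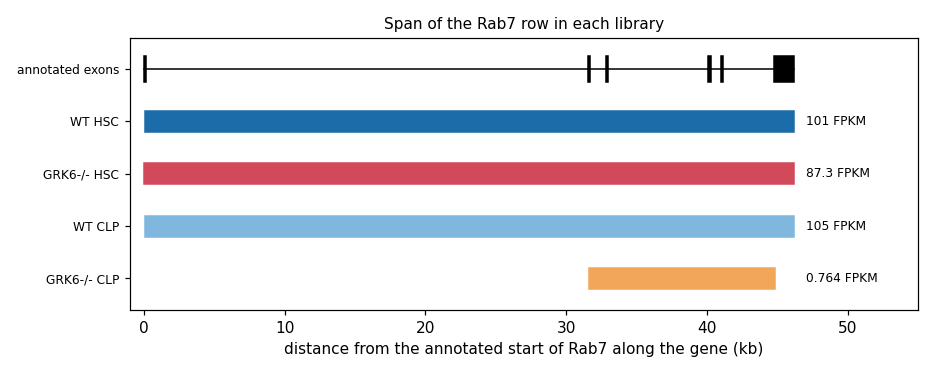
Span of the Rab7 row in each library against the annotated exons (black), by distance in kb from the annotated start along the gene, with the FPKM of each row. The rows of 3 libraries cover the gene, and the row of the GRK6-/- CLP library, at 0.764 FPKM, leaves out the first exon and most of the last.

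The other 3 Rabs of late endosomes and autophagosomes did not share that pattern. Rab9, which returns cargo from late endosomes to the Golgi, read 60.6 and 58.4 FPKM in WT and GRK6-/- HSC and 10.7 and 47.5 FPKM in WT and GRK6-/- CLP. The WT CLP library was the low one, with a log2 ratio of GRK6-/- to WT of 2.06 in CLP and of -0.05 in HSC. Rab24, linked to autophagy, read 25.6, 14.3, 23.8 and 65.3 FPKM, highest in GRK6-/- CLP with a log2 ratio of 1.42, but its row overlaps that of Prelid1 and its extent differs between libraries. Rab12, which sends transferrin receptor to degradation, read 7.90 and 2.84 FPKM in the HSC libraries and 18.1 in WT CLP, with no row in GRK6-/- CLP. It was lower in the library labelled GRK6-/- in both populations, with a log2 ratio in HSC of -1.21.

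Of the 4 Rabs that carry cargo from the Golgi to the plasma membrane, Rab8a had the widest range. It lies at chr8:74685099-74705265 on the plus strand of mm9. It read 77.2 and 30.6 FPKM in the HSC of WT and GRK6-/- mice and 12.8 and 57.2 in their CLP. The genotypes thus differed in opposite directions, with log2 ratios of -1.31 in HSC and 2.07 in CLP. Rab8b, its close relative, read 18.8 FPKM in GRK6-/- HSC and 6.04 to 6.85 in the other libraries, a log2 ratio in HSC of 1.49. Rab10, a Rab of insulin-responsive and basolateral carriers whose row overlaps that of 1700012B15Rik, read 21.5, 24.1, 15.7 and 43.6 FPKM, with a log2 ratio in CLP of 1.41. Rab13, known from tight junctions, had a row only in GRK6-/- HSC, at 2.78 FPKM.

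The 7 Rabs of regulated secretion, which release stored granules, summed to 90.6 and 257 FPKM in the HSC of WT and GRK6-/- mice and 35.3 and 55.9 in their CLP. Rab44 made up most of the high sum. Rab44, a long Rab linked to granule release in mast cells, lies at chr17:29272001-29285935 on the plus strand of mm9. It read 36.6 and 228 FPKM in the HSC of WT and GRK6-/- mice and 11.5 and 10.9 in their CLP, about 435, 3564, 207 and 125 fragments. Both HSC libraries lay above both CLP libraries, and the log2 ratio of the genotypes was 2.61 in HSC and -0.07 in CLP. Markers of mast cells and basophils, 3 of 6 with a row, summed to 151 and 141 FPKM in the HSC of WT and GRK6-/- mice and 25.6 and 1.27 in their CLP, with no row for Cpa3 in WT CLP or for Mcpt8 in GRK6-/- CLP. Their sums were higher in HSC than in CLP as Rab44 was. In WT this held for Cpa3 and Hdc but not for Mcpt8, which read 19.1 FPKM in HSC and 22.4 in CLP. In GRK6-/- HSC against WT HSC, Mcpt8 was higher as Rab44 was (74.9 against 19.1 FPKM), Cpa3 was lower (47.8 against 115.5 FPKM) and Hdc differed little (18.3 against 16.3 FPKM). The part of such cells in the Rab44 level was not tested. In pooled cells fewer cells of a type and less RNA per cell cannot be told apart. Rab37, also known from mast cell granules, read 33.0 and 9.82 FPKM in the HSC of WT and GRK6-/- mice and 8.47 and 28.2 in their CLP. Its genotypes differed in opposite directions, with log2 ratios of -1.65 in HSC and 1.62 in CLP, and its row overlaps that of Cd300lf. Rab27a, needed for lytic granule release, read 11.7, 4.69, 12.1 and 9.02 FPKM, with a log2 ratio in HSC of -1.15. Rab3d, a Rab of secretory granules, read 8.20 and 12.8 FPKM in the HSC libraries and 3.16 and 4.80 FPKM in the CLP libraries. Rab27b, a Rab of platelet granules, stayed at or below 1.98 FPKM, and Rab3b and Rab26 each had a row in a single library, at 0.976 and 0.197 FPKM.

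Rab32 and Rab38 build lysosome-related organelles such as melanosomes and platelet dense granules. Rab38, at chr7:95578783-95640082 on the plus strand of mm9, read 125 and 59.0 FPKM in the HSC of WT and GRK6-/- mice and 3.25 and 29.7 in their CLP. Both HSC libraries lay above both CLP libraries, and the log2 ratio of CLP to HSC was -4.89 in WT and -0.97 in GRK6-/-. The genotypes differed in opposite directions, with log2 ratios of -1.07 in HSC and 2.85 in CLP. Rab32 read 58.2 and 59.2 FPKM in the WT libraries and 35.6 and 17.4 FPKM in GRK6-/- HSC and GRK6-/- CLP, so that both WT libraries lay above both GRK6-/- libraries, with log2 ratios of -0.69 and -1.71. Markers of megakaryocytes and platelets, with a row for all 6, summed to 149.6 and 13.1 FPKM in the HSC of WT and GRK6-/- mice and 13.5 and 117 in their CLP, with no row for Pf4, Vwf or Gp1bb in GRK6-/- HSC. Their sum was lower in GRK6-/- than in WT in HSC and higher in CLP, the directions of Rab38, although it was lowest in GRK6-/- HSC, where Rab38 had its second-highest value. The part of such cells in the level of Rab38 was not tested.

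The 6 remaining members are less characterised or act elsewhere. Rab28, known from photoreceptors, read 29.1, 23.0, 9.79 and 5.14 FPKM, higher in both HSC libraries. Rab23, an inhibitor of Hedgehog signalling, had no row in either WT library and read 1.41 FPKM in GRK6-/- HSC and 19.7 in GRK6-/- CLP, about 23 and 239 fragments. Rab40c, which joins a ubiquitin ligase and whose row overlaps that of Gm10012, read 5.17 and 4.97 FPKM in the HSC libraries, 0.472 in WT CLP and 26.1 in GRK6-/- CLP. Rab33a, Rab34 and Rab40b each had a row in 1 library, at 1.25 to 2.30 FPKM.

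Counted over the family, GRK6-/- differed from WT in HSC by 2-fold or more in 18 of 45 members with a value. Of these 9 were higher and 9 lower, where 19.3% of all genes were higher and 18% lower. The median log2 ratio of the members was -0.05, against 0.05 over all genes. In CLP 17 of 43 members were higher and 10 lower, where 26.6% and 23.4% of all genes were, and the medians were 0.49 for the members and 0.05 for all genes. With FPKM of at least 1 required in both libraries the members' median in CLP came to 0.07, so the higher median rested on genes read near 0 in 1 library. Among members with a mean of at least 10 FPKM, 8 of 28 differed in HSC, 4 in each direction, where 33.3% of all genes at that level did. In CLP 17 of 27 differed, 10 higher and 7 lower, where 45% of all genes did. The comparison in CLP is between libraries that also differed in several marker lists, given here as sums in WT and GRK6-/-. Erythroid markers summed to 17.8 and 17466 FPKM, mostly Hba-a2 in the latter, and B lineage markers to 115 and 968 FPKM (6 of 7 with a row). Macrophage and dendritic markers summed to 80.9 and 789 FPKM (5 of 7 with a row). Of these Siglech and Cd74 were higher in GRK6-/-, and Csf1r, Emr1 and Cd68 were lower. Lymphoid progenitor markers summed to 1362 and 912 FPKM, with Flt3 higher in GRK6-/- and Il7r, Dntt, Rag1, Rag2 and Ikzf1 lower. The part of such cells in the Rab differences was not tested.

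A difference past 2-fold in the same direction in both populations was seen in 4 members. Rab4a, Rab6b and Rab23 were higher in both libraries labelled GRK6-/-, where 4.74% of all genes were, and Rab12 was lower in both, where 3.71% were. In opposite directions 5 members differed, where 9.01% of all genes did, namely Rab5b, Rab8a, Rab33b, Rab37 and Rab38. All 5 were lower in GRK6-/- HSC than in WT HSC and higher in GRK6-/- CLP than in WT CLP, and Rab33b among them had no row in WT CLP. Of 12417 genes, 592 had these directions and 527 the reverse. Without a threshold, both GRK6-/- libraries lay above both WT libraries for 7 members (14.4% of all genes), namely Rab4a, Rab6b, Rab8b, Rab10, Rab11a, Rab11b and Rab23. Both WT libraries lay above both GRK6-/- libraries for 8 members (13.1% of all genes), namely Rab2a, Rab7, Rab12, Rab14, Rab22a, Rab27a, Rab32 and Rab35. The members' shares, 7 and 8 of 49, were near those of all genes.

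**Figure D3:**
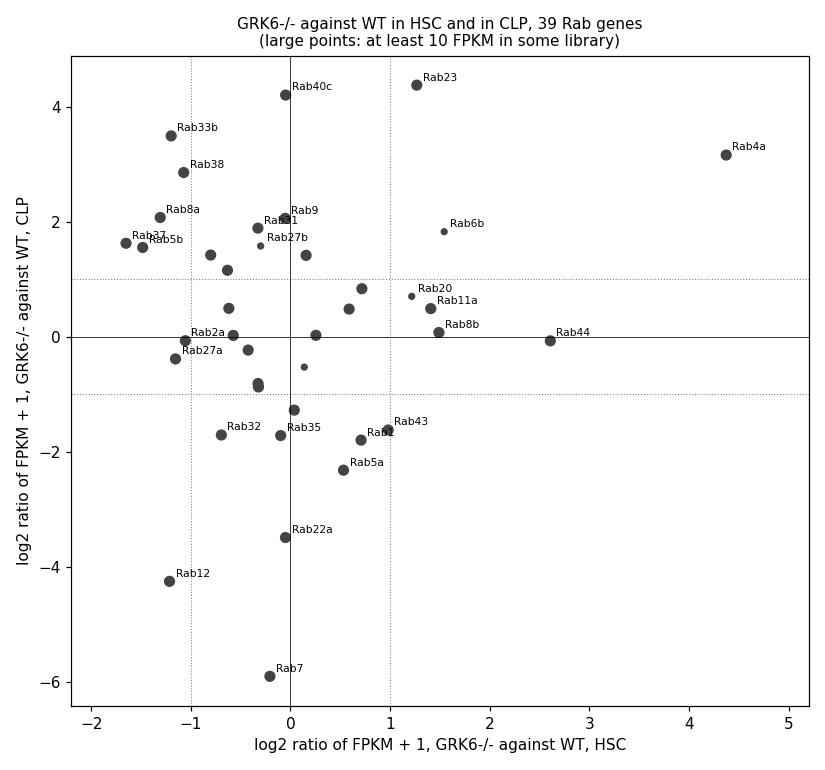
Log2 ratio of FPKM + 1 in GRK6-/- over WT, in HSC (x axis) and in CLP (y axis), for the 39 Rab genes with a value in both populations; dotted lines mark 2-fold, large points have at least 10 FPKM in some library, and ratios to a library without a row depend on the added 1. Rab4a and Rab23 lie at the upper right, Rab12 at the lower left, and Rab5b, Rab8a, Rab33b, Rab37 and Rab38 at the upper left.

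Between the populations, the summed level of the family was lower in the CLP libraries. The FPKM of the 49 members summed to 1157 and 1169 in the HSC libraries and to 831 and 814 in the CLP libraries, WT first. Most of the difference in GRK6-/- came from Rab7 and Rab44. Without these, left out after their values were seen, the sums were 1019 and 854 in HSC and 715 and 802 in CLP. In WT 6 of 42 members were higher in CLP and 16 lower past 2-fold, where 21.8% and 24.7% of all genes were. In GRK6-/- 8 of 47 were higher and 14 lower, where 22.3% and 23.4% of all genes were. The median log2 ratio of CLP to HSC was -0.52 in WT and -0.39 in GRK6-/-, against -0.08 over all genes in each. The same direction past 2-fold in both genotypes was found for 1 higher member, Rab2b (5.05% of all genes), and 5 lower members, Rab3d, Rab17, Rab20, Rab28 and Rab44 (5.77% of all genes). Of these Rab17 and Rab20 had no row in WT CLP. Rab28 had log2 ratios of -1.48 and -1.97, Rab3d of -1.15 and -1.25 and Rab44 of -1.58 and -4.26, in WT and GRK6-/- respectively. Both HSC libraries lay above both CLP libraries for 11 members (17.6% of all genes), which were these 5 and Rab4b, Rab5c, Rab6, Rab9, Rab21 and Rab38. The opposite order held for Rab2b alone (14.2% of all genes).

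The promoters of members that were lower in CLP in both genotypes and of Rab7 are shown because they precede the genes on which these comparisons turn. Rab44 had no entry. The windows are the 250 bases before the RefSeq transcription start on GRCm38.p6, another build than that of the files, written 5′ to 3′ on the strand of the gene. Capitals mark 4 short motifs read on either strand. They are the GC box, written GGGCGG, and the CCAAT box. The others are the E-box, which is CACGTG here, and the TATA box, which was searched as TATAAA. Rab17 has none of them. Rab7 has a further annotated start, whose window is not shown.
Rab3d, chr9:21918184-21918433, minus strand: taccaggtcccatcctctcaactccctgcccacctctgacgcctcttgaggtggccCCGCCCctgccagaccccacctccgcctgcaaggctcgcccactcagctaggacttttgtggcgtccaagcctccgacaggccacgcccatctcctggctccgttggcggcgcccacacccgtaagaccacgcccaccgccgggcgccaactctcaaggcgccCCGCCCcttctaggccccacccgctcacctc
Rab17, chr1:90967668-90967917, minus strand: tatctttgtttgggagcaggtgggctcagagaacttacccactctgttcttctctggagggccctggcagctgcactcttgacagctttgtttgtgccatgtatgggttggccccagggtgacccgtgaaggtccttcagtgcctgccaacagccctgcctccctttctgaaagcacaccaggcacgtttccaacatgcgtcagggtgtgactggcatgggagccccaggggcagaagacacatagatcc
Rab20, chr8:11478641-11478890, minus strand: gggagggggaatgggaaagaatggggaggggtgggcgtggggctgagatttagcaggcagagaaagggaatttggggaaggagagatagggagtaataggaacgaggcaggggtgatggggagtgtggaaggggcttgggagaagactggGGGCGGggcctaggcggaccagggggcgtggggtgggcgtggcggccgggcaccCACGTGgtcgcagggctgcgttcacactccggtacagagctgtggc
Rab28, chr5:41708180-41708429, minus strand: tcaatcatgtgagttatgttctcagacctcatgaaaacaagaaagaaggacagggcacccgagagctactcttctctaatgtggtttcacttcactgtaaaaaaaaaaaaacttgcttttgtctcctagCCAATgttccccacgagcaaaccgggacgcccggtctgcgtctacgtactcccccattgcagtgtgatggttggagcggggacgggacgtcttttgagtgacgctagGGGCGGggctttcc
Rab7, chr6:88045271-88045520, minus strand: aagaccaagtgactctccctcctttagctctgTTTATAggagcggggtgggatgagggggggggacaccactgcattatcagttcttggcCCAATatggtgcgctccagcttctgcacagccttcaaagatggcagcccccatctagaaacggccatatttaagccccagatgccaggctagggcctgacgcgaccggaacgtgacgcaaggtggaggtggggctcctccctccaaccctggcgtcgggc

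Over the 47 windows of 39 members with an entry, GGGCGG was present on either strand in 33 (70.2%), against 56.3% of 11235 windows of genes with a row. CCAAT was present in 20 (42.6% against 35.1%), CACGTG in 5 (10.6% against 8.34%) and TATAAA in 2 (4.26% against 6.32%). A match of letters is a description of the window and does not show a bound factor.

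Close relatives can stand in for each other in part, so their levels were also summed. The members formed 11 families of at least 2 members with a row. In HSC 2 of the 11 family sums passed a 2-fold difference between genotypes, beside 11 of the 21 members with a value, and in CLP 4 of 11 did, beside 11 of 21. The difference between these shares was not tested. The sum of Rab5 genes was 52.0 and 68.4 FPKM in the HSC of WT and GRK6-/- mice and 47.9 and 42.6 in their CLP. Rab11 genes summed to 41.8, 78.0, 57.2 and 71.3 FPKM. The families past 2-fold in CLP included Rab1, with sums of 128 FPKM in WT and 40.3 in GRK6-/-, and Rab8, with sums of 19.3 and 64.1 FPKM. The Rab1 sum includes the row that overlaps that of Cep68.

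**Figure D4:**
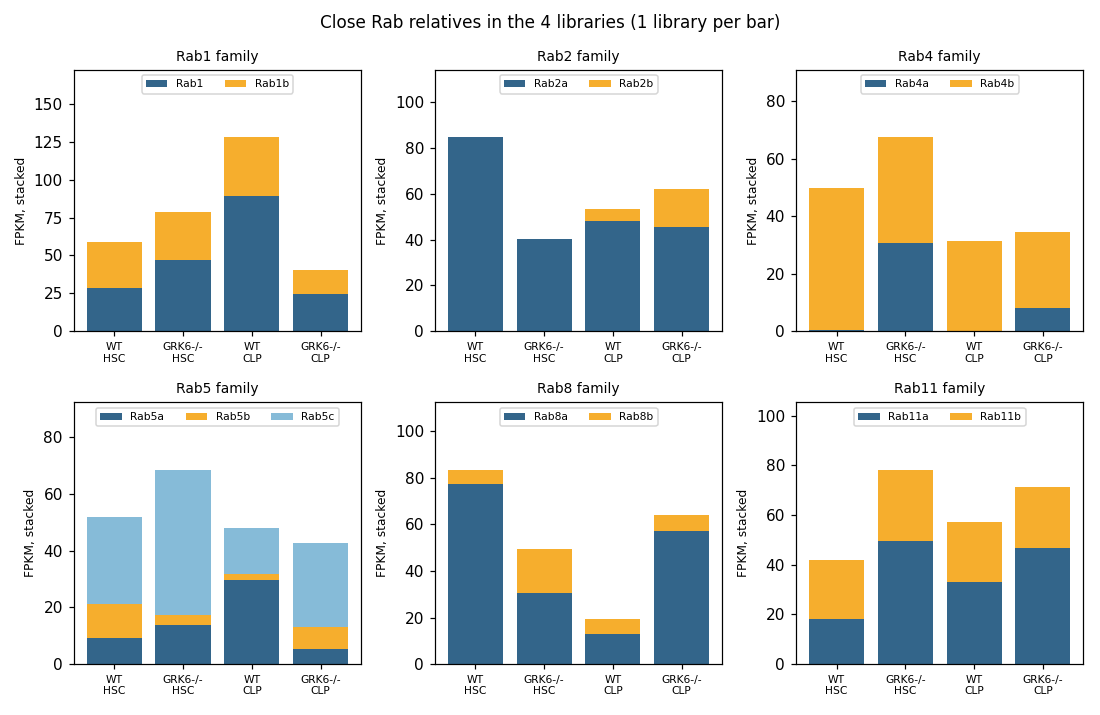
FPKM of close Rab relatives, stacked by gene, in 6 families (y axis from 0, FPKM), with 1 bar per library and no error because each group is 1 library. Rab4a adds to a steadier Rab4b in the GRK6-/- libraries, and Rab5a leads its family only in WT CLP.

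The partners of the Rab cycle were taken from lists of 8 GDP dissociation inhibitors, escort and prenylation proteins, 37 exchange factors, 37 GTPase-activating proteins and 35 effectors. Of these 7, 36, 36 and 29 had a row of their own. Rabac1, a Rab receptor of the Golgi, and Gdi2, which extracts Rabs from membranes, were the most abundant of the first list. Rabac1 read 232 and 227 FPKM in the HSC of WT and GRK6-/- mice and 199 and 129.5 in their CLP, and Gdi2 read 104, 137, 99.3 and 64.9 FPKM. Past 2-fold in HSC were 1 higher and 0 lower of 7 in the first list, 4 higher and 5 lower of 35 exchange factors, 8 and 5 of 35 GTPase-activating proteins and 2 and 4 of 27 effectors. Of all genes 19.3% were higher and 18% lower. In CLP the counts were 1 and 2 of 7, 12 and 5 of 32, 11 and 6 of 34, and 8 and 5 of 27, where 26.6% and 23.4% of all genes were. Tbc1d10c, a GTPase-activating protein of lymphocytes, read 247 and 85.5 FPKM in the HSC libraries and 237 in WT CLP, with no row in GRK6-/- CLP. It was lower in the library labelled GRK6-/- in both populations. Rilpl2, related to the Rab7 effector Rilp, read 97.0, 47.7, 76.9 and 17.9 FPKM, and Dennd4c, an exchange factor for Rab10, read 44.0, 0.583 and 16.7 FPKM with no row in GRK6-/- CLP. Sytl1, an effector of Rab27, read 10.2, 2.55, 30.1 and 14.4 FPKM. These and Tbc1d10b, Tbc1d23 and Rab3ip were lower in both libraries labelled GRK6-/-, past 2-fold in each population, and Dennd3 and Tbc1d19 were higher. All of them had at least 10 FPKM in some library. Below that level Trappc2 was also higher, with no row in either WT library and 2.34 and 6.87 FPKM in GRK6-/- HSC and CLP. That made 10 of 108 partners with a row of their own. Of all genes, at any level, 3.71% were lower and 4.74% higher in both. Rab3ip, an exchange factor for Rab8, read 5.63, 0.984, 19.2 and 7.34 FPKM, and so did not share the order of Rab8a.

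The 4 libraries allowed 1 fit over all genes, with limma on log2(FPKM + 1) and terms for population and genotype, which leaves 1 residual degree of freedom. For the population 80 of 11230 genes (0.712%) had an adjusted p under 0.05, among them 3 of 45 members tested. Rab44 was lower in CLP by a log2 difference of -2.92 ± 0.80 (SE, limma adjusted p = 0.038), Rab38 by -2.93 ± 0.81 (limma adjusted p = 0.046) and Rab7 by -2.80 ± 0.78 (limma adjusted p = 0.0496). Rab44 and Rab38 were lower in both CLP libraries than in both HSC libraries. For the genotype 57 genes (0.508%) passed, and 1 member, Rab7, with a log2 difference of -3.05 ± 0.78 (SE, limma adjusted p = 0.027). The Rab7 calls came from the GRK6-/- CLP library alone, since the other 3 libraries lay between 87.3 and 105 FPKM, and the fit has no term for such a pattern. With the mean-variance trend limma estimated an infinite prior degree of freedom, so that the spread of each gene itself carried no weight. Without the trend the adjusted p was 0.82 for Rab44, 0.87 for Rab38 and 0.92 for Rab7 in the population and 0.999 for Rab7 in the genotype by limma, and none of these 3 was called. The calls therefore rest on the assumed spread, and the values per library remain the measurement.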

How the data were processed

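RNA-seq values of 4 pooled libraries were used, 1 per population and genotype. The authors aligned reads to mm9, with TopHat 1.4.0 named in the submitters' processing notes, and deposited an FPKM value for each gene, already scaled by transcript length and mapped fragments. The version of the quantifier is not given in the sources used here. Loci in the files count starts from 0 and are printed from 1. Genes named in a joint row were left out. Genes with no row in a library counted as 0 FPKM there. Log2 ratios used a pseudocount of 1 FPKM and the study's threshold of 1. Depth was estimated from steps in FPKM values under 0.3 of genes with 1 transcript of at least 1500 bp, where 74.8% to 84% of values lay within 10% of 1, 2 or 3 fragments.

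The members, the roles, the marker lists and the lists of Rab partners were chosen with earlier results of these data known. The genes named were the 10 with the highest mean FPKM, those with at least 10 FPKM in some library and past 2-fold between genotypes, and those past 2-fold between populations in both genotypes, which came to 34 of 49, with the others given by range or level. Of the Rab partners, those with at least 10 FPKM in some library and past 2-fold in the same direction in both populations were eligible, and 9 met this. limma 3.58.1 fitted population and genotype with a mean-variance trend. Its adjusted p-values follow Benjamini and Hochberg. The fit leaves 1 residual degree of freedom, and with the infinite prior its precision rests on the trend over all genes. The alternatives varied the pseudocount, the minimum FPKM, the scaling, the handling of repeated symbols and joint rows, the threshold and the limma model. Promoters came from RefSeq on GRCm38.p6 and were matched by symbol. No protein sequences were used here. Scripts were tested on simulated data without a library-specific spread, which does not check limma for libraries like these. The software was R 4.3.3 and Python 3.11.15 with pandas 2.3.3, numpy 2.4.6 and matplotlib 3.10.9.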

Additional observations from a re-analysis of the deposited data

Results flagged for a closer look

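In 5 of 49 members the libraries labelled GRK6-/- and WT differed past 2-fold in opposite directions in the 2 populations, where 9.01% of all genes did. All 5 were lower in HSC and higher in CLP, as 592 of 12417 genes were. With 1 library each, whether the populations differ was not tested. The log2 ratio of GRK6-/- to WT was -1.07 in HSC and 2.85 in CLP for Rab38, -1.31 and 2.07 for Rab8a, -1.65 and 1.62 for Rab37, and -1.48 and 1.55 for Rab5b. For Rab33b it was -1.20 in HSC and 3.49 in CLP, where the latter is set by the added 1 FPKM because WT CLP had no row. In WT CLP the 5 read at most 12.8 FPKM, and being lower there than in GRK6-/- CLP was part of how they were picked. Erythroid markers in the CLP libraries summed to 17.8 and 17466 FPKM in WT and GRK6-/-, the latter mostly from Hba-a2 (17219.5 FPKM). Erythroid markers were also higher in GRK6-/- HSC than in WT HSC, at 134 against 13.6 FPKM. Summed over 6 genes, markers of megakaryocytes and platelets had the same directions as these members. The sums were 149.6 FPKM in WT and 13.1 in GRK6-/- for HSC and 13.5 and 117 for CLP. Pf4, Itga2b and Gp9 each had these directions. The log2 ratios were -3.21 in HSC and 3.74 in CLP for Itga2b and -1.86 and 4.65 for Gp9. Ppbp went the other way in HSC, with no row in WT and 2.20 FPKM in GRK6-/-, and had no row in CLP. Gp1bb had a row only in GRK6-/- CLP, at 1.84 FPKM, and Vwf was at or below 0.114 FPKM. Of the HSC markers, 7 of 8 with a row, Mecom had log2 ratios of -1.02 in HSC and 1.60 in CLP. Kit (-0.62 and 1.61) and Hlf (-0.77 and 1.60) had the same signs. Cd34 (1.16 and 0.56) and Procr, with no row in WT HSC, were higher in GRK6-/- in both populations. Slamf1 (-2.55 and -0.05) and Meis1 (-0.27 and -0.05) were lower in both. The part of other cells in these values was not tested.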

How the results depend on the processing

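Among the named members, no ratio past 2-fold changed its direction under any alternative tried. Of their smaller ratios only that of Rab32 for CLP against HSC in WT changed sign, from 0.025 to -0.012 on the log2 scale with rescaling. Of the named members' ratios, 22 dropped below 2-fold and 111 kept their side with a pseudocount of 5 FPKM, and 7 newly passed with one of 0.1. With 5 FPKM added, 4 members were higher and 3 lower in GRK6-/- HSC, 2 were lower in CLP in both genotypes, and the medians were 0.26 for the genotypes in CLP and -0.28 for CLP against HSC in WT. With 0.1 the median of CLP against HSC in GRK6-/- was -0.68. With at least 1 FPKM in both libraries, 4 were higher in HSC, 10 higher and 6 lower in CLP, 0 higher and 3 lower in CLP than HSC in both genotypes, and the medians were -0.26 in HSC, 0.073 in CLP and -0.27 for CLP against HSC in WT. At a log2 threshold of 2, 2 were higher and 0 lower in HSC, 7 higher and 4 lower in CLP, and 0 lower in CLP than HSC in both genotypes. Further alternatives were added after seeing the data, one of them the family's summed FPKM without Rab7 and Rab44, given above. Without members of overlapping or differing loci, 0 were higher in CLP than HSC in both genotypes, and in the WT libraries alone 6 were higher and 16 lower. Shares of all genes are given above for the main setting only, so the counts of members under changed settings cannot be read against all genes. In limma, 1 gene was called for the population and 1 for the genotype with only the term tested, 25 and 12 with at least 1 FPKM in all 4 libraries, and 1 and 0 without the trend, where 768 and 651 genes had an unadjusted p under 0.05 in the fit with the trend. Over these alternatives the limma adjusted p ranged from 0.029 to 0.87 for Rab44 and Rab38 in the population, from 0.012 to 0.92 for Rab7 in the population and from 0.0068 to 0.999 for Rab7 in the genotype. The highest row per symbol kept the counts of members between genotypes and those between populations in both genotypes, and so did rescaling, but with rescaling 16 in place of 14 members were lower in GRK6-/- CLP than in GRK6-/- HSC, with Rab1b and Rab32 added at -1.01 each. Leaving out a replicate was not possible with 1 library per group. No paired analysis was possible because each group has 1 library. At the estimated depth, values under about 0.2 FPKM correspond to about 1 fragment, so that a gene without a row was not detected, which does not show it absent.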
